A study of Mus musculus with 6 samples.

Results

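The molecular clock of mammalian cells was followed here through 10 transcripts, chosen by gene symbol from a list of its core parts: Arntl, Nr1d1, Nr1d2, Per1, Per2, Per3, Cry1, Cry2, Ciart and Dbp. All 10 were present, each as 1 row, among the 54532 gene rows of the deposited table, and all 10 had enough reads to be tested. The cells were TM3, an established line of mouse Leydig cells, which in the testis make testosterone. The control group was given vehicle, 0.1‰ DMSO, for 48 h (n = 3 libraries), and the treated group was given 100 nM pyrotinib for 48 h (n = 3 libraries). Pyrotinib is an irreversible inhibitor of ErbB family receptor kinases, and the series asks how it harms the male reproductive system. All libraries came from 1 commercially obtained cell line at 1 time point. Neither the labels nor the design text give the time of day at harvest or say whether the cells had been synchronised, so a shift in clock phase and a change in mean level cannot be told apart.

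The clock is a feedback loop of transcription. The ARNTL protein (also called BMAL1) pairs with CLOCK, binds E-box elements and switches on the Per, Cry, Nr1d, Ciart and Dbp genes; PER and CRY proteins then return to the nucleus and inhibit the ARNTL-CLOCK pair. A second loop joins through the NR1D1 and NR1D2 proteins (REV-ERB alpha and beta), which repress Arntl at ROR elements, the sites that the ROR receptors use to activate it. DBP carries the rhythm to D-box elements of output genes. Leydig cells are known to express clock genes, and male mice that lack Arntl are infertile with low testosterone.

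With pyrotinib, 6 of the 10 clock genes fell and none rose. The 6 were Nr1d1 (2.78-fold), Per1 (2.52-fold), Ciart (2.00-fold), Dbp (1.46-fold), Per3 (1.34-fold) and Nr1d2 (1.23-fold). Among all 14125 tested genes, 12.8% were called lower, 13.2% higher and 26.0% in either direction, at an adjusted p under 0.05 by edgeR's quasi-likelihood test. Of the 8 repressors 5 fell, the output gene Dbp fell, and the activator Arntl did not pass the test. The fitted log2 fold change was negative for all 10 genes, with a median of -0.46 against 0.00 over all tested genes. Since the 10 genes were chosen with earlier results of these data known, these comparisons with all genes are a description and not a test. The same 6 genes that fell had no overlap between the groups, as did 40.9% of all tested genes. In bulk RNA, fewer cells with a transcript and less of it per cell cannot be told apart.

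**Figure D1:**
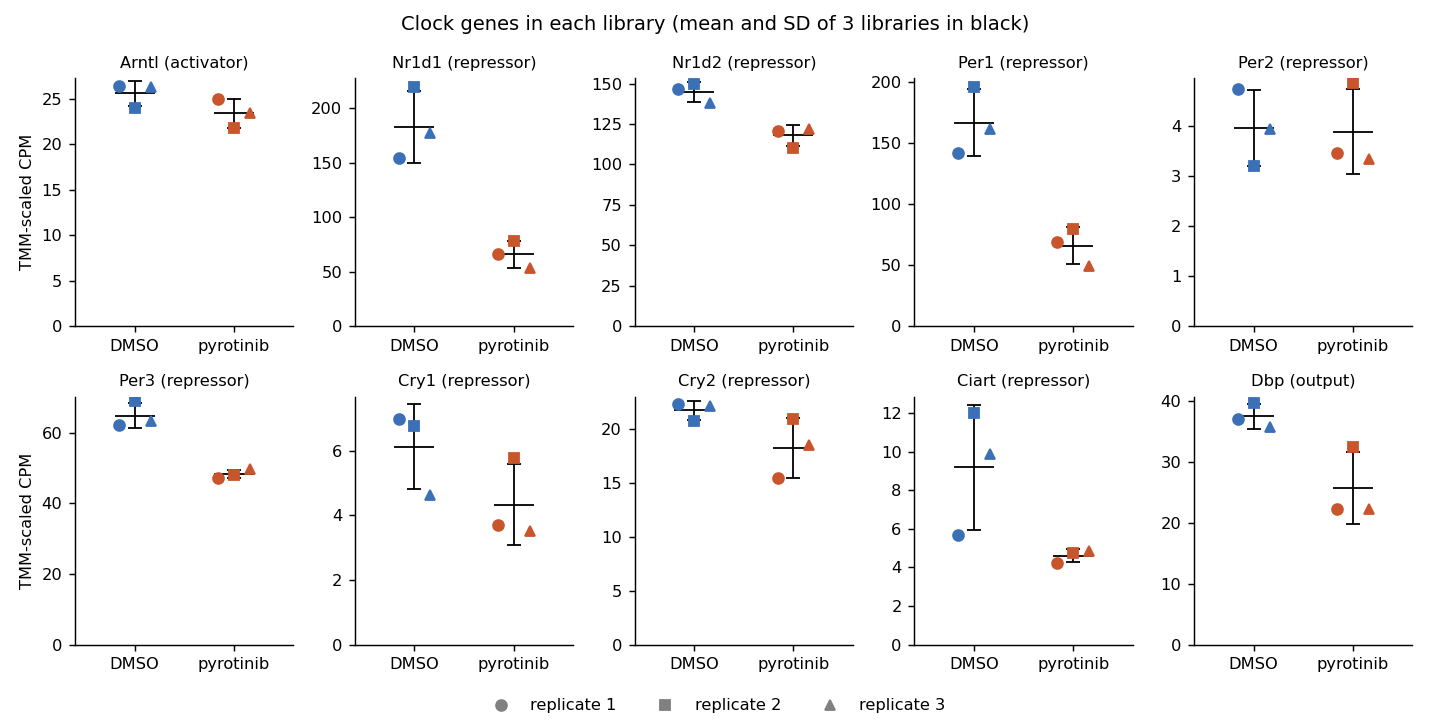
Each panel shows 1 clock gene, with CPM (read counts relative to the TMM-scaled library size) on the y axis, the 2 groups on the x axis, 1 point per library and the mean and SD of 3 libraries in black. All pyrotinib libraries lie below all DMSO libraries for Nr1d1, Nr1d2, Per1, Per3, Ciart and Dbp, and the groups overlap for Arntl, Per2, Cry1 and Cry2.

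The promoter sequences of Ciart, Per1, Cry1, Nr1d1 and Per3 are shown first, since the clock proteins act on short elements in them. Each of these held a motif match, and Cry1 did not pass the test. The windows of Nr1d2 and Dbp, which also fell, and of Cry2 and Arntl are not shown. Windows of 300 bases, from 250 before to 50 after the start site, were found for 9 of the 10 genes in the RefSeq tables (GRCm38.p6), with 2 start sites each for Per1 and Arntl. They were searched on both strands for the E-box CACGTG, the variant E-box (E-prime box) CACGTT, the ROR element core AGGTCA, the D-box TTANGTAA and the cyclic AMP response element TGACGTCA; no 2 matches overlapped. Capitals below mark the matches, and each sequence reads 5′ to 3′ along its gene.
Ciart, chr3:95882179-95882478, minus strand: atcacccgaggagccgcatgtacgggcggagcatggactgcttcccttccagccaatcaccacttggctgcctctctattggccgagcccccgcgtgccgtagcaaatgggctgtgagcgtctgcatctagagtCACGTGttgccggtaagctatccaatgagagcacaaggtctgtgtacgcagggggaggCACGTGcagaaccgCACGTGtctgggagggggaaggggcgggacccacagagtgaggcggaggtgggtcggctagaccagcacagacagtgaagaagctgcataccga
Per1, first start site, chr11:69098699-69098998, plus strand: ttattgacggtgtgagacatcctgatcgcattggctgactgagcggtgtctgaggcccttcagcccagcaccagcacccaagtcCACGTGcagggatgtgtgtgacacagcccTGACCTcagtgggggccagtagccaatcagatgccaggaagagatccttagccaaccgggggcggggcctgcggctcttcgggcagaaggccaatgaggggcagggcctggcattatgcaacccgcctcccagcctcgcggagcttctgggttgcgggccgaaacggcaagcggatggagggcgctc
Cry1, chr10:85185005-85185304, minus strand: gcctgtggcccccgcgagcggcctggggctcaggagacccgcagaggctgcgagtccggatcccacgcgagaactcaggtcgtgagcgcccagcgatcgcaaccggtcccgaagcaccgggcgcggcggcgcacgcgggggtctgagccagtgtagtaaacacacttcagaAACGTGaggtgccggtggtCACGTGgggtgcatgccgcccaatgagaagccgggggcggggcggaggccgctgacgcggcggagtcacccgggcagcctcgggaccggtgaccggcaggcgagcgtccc
Nr1d1, chr11:98775328-98775627, minus strand: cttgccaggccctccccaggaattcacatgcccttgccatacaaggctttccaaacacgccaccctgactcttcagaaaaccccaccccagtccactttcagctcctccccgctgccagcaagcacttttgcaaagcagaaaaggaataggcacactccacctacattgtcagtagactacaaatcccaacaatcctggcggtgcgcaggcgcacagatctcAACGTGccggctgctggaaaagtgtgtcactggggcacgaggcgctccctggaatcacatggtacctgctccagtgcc
Per3, chr4:151044616-151044915, minus strand: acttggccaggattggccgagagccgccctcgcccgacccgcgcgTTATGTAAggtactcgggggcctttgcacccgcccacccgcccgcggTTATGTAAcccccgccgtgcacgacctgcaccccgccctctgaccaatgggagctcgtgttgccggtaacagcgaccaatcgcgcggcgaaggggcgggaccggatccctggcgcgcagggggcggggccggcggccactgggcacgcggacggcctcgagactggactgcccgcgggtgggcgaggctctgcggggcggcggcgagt

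The window of Ciart held 3 copies of the E-box, which begin 116, 58 and 44 bases before the start site. Of all 32851 promoter windows, 7.15% held at least 1 such E-box and 0.0883% held 3 or more. Per1 and Cry1 held 1 E-box each, at 166 and 60 bases before the start, so the letters were present both in genes that fell (Ciart, Per1) and in one that did not pass (Cry1). Nr1d1, Cry1 and Cry2 each held 1 variant E-box, which 4.68% of all windows held. For Nr1d1, Cry2 and the second Per1 start site, the 50 bases after the RefSeq start were not found near the start of the gene's GENCODE M21 transcripts. Per3 held 2 D-boxes, at 205 and 158 bases before the start, where 2.32% of all windows held 1 or more and 0.198% held 2 or more. The ROR element core was present near Nr1d2, Per1 and the second Arntl start site, and in 16.3% of all windows. None of the 5 motifs was present in the Dbp window, and no window held the cyclic AMP response element, present in 1.79% of all windows. These matches are letters in a short window and not measured binding sites.

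**Figure D2:**
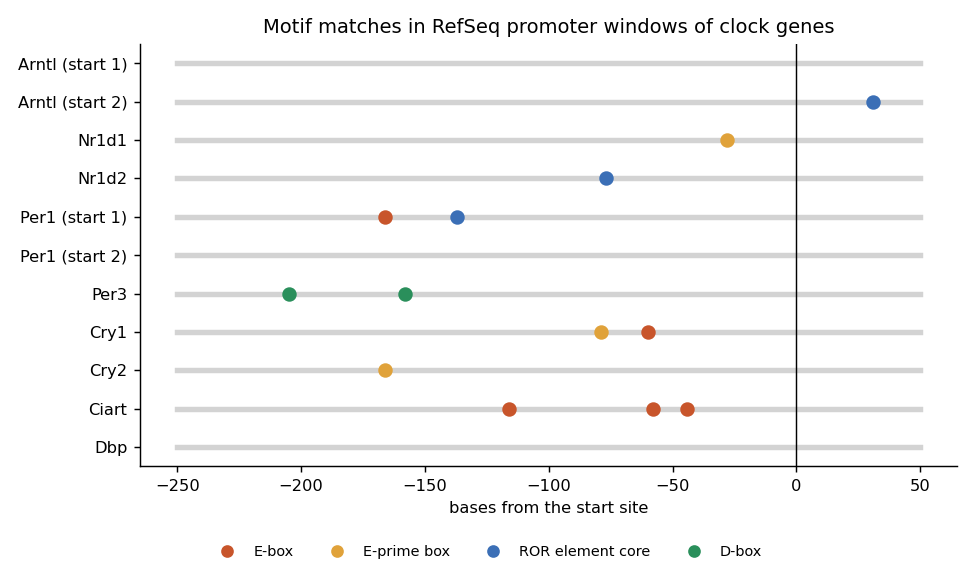
Each grey bar is a RefSeq promoter window of a clock gene, with distance in bases from the start site on the x axis; each dot is a motif match, coloured by motif and placed at its first base. Ciart carries 3 E-boxes within 116 bases before the start site and Per3 carries 2 D-boxes, while the Dbp window carries no match.

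The activator Arntl gave 26.4, 24.0 and 26.3 CPM in DMSO replicates 1, 2 and 3 and 25, 21.8 and 23.4 CPM in pyrotinib replicates 1, 2 and 3. The groups overlapped, since pyrotinib replicate 1 stood above DMSO replicate 2. Its log2 fold change was -0.13 ± 0.11 (SE, adjusted p = 0.43), and the 95% interval of the ratio, 0.777 to 1.08, holds both no change and a moderate fall. Arntl (ENSMUSG00000055116) lies on chromosome 7, 113207465 to 113314126 (mm10, plus strand).

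Its partners on the activator side were read next. Clock, whose protein pairs with ARNTL, gave 127, 137 and 135 CPM with DMSO and 148, 123 and 137 CPM with pyrotinib, which overlapped (log2 fold change 0.03, adjusted p = 0.83). After a correction for transcript GC content the Clock value was -0.16 (adjusted p = 0.092). Arntl2, a paralogue of Arntl, was near the low end of the tested genes at 2.53 ± 0.251 CPM with DMSO and 2.57 ± 0.280 CPM with pyrotinib (adjusted p = 0.96). Npas2, which can replace CLOCK, and Rorb had 0 reads in every library, and Rora had 5 reads over all 6, so none of the 3 was tested.

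Both REV-ERB genes fell, Nr1d1 much more than Nr1d2. Nr1d1 (ENSMUSG00000020889, chromosome 11, 98767932 to 98775333, minus strand) gave 154, 219 and 177 CPM with DMSO and 66.3, 78.0 and 53.3 CPM with pyrotinib. The highest treated library lay well below the lowest control. The log2 fold change was -1.48 ± 0.13 (SE, adjusted p = 9.7e-07), which placed Nr1d1 16th among 14125 genes by p-value and 122nd by size of the fall. Nr1d2 (ENSMUSG00000021775, chromosome 14, 18204054 to 18239127, minus strand) gave 147, 150 and 138 CPM with DMSO and 121, 110 and 122 CPM with pyrotinib. These groups lay apart by a narrow gap, and the log2 fold change was -0.30 ± 0.08 (adjusted p = 0.013). Without DMSO replicate 2 the Nr1d2 call was lost (log2 fold change -0.28, adjusted p = 0.061). Per length, Nr1d1 stood above Nr1d2 in every DMSO library, with FPKM ratios of 1.84, 2.57 and 2.26. With pyrotinib the ratios were 0.964, 1.25 and 0.767, so the order of the 2 paralogues was reversed in 2 of 3 libraries.

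The end of Nr1d1 overlaps Thra, the thyroid hormone receptor alpha gene on the other strand. In GENCODE M21 263 of the 3077 exonic bases of Nr1d1 are shared with Thra exons, and the library protocol names no step that marks strand. Thra gave 230 ± 8.85 CPM with DMSO and 244 ± 16.9 CPM with pyrotinib (log2 fold change 0.09, adjusted p = 0.46). The value after GC correction was 0.23 (adjusted p = 0.012). The estimate was positive for Thra and negative for Nr1d1 in both fits. The part of reads from the shared bases in the Nr1d1 value was not tested.

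The 3 Period genes, whose proteins carry the main negative feedback, differed in how far they moved. Per1 (ENSMUSG00000020893, chromosome 11, 69095217 to 69109960, plus strand) gave 142, 196 and 162 CPM with DMSO and 69.4, 79.6 and 49.2 CPM with pyrotinib. No treated library came near a control, and the log2 fold change was -1.33 ± 0.14 (SE, adjusted p = 6.9e-06). Per3 (ENSMUSG00000028957, chromosome 4, 151003652 to 151044665, minus strand) gave 62.2, 69.0 and 63.4 CPM with DMSO and 47.2, 48.0 and 49.6 CPM with pyrotinib. Its treated libraries were the most even of all 10 genes relative to their level, and the log2 fold change was -0.43 ± 0.09 (adjusted p = 0.0024). Per2 (ENSMUSG00000055866, chromosome 1, 91415982 to 91459324, minus strand) had the fewest reads of the 10 genes, 370 over all libraries. It gave 4.73, 3.20 and 3.93 CPM with DMSO and 3.45, 4.85 and 3.33 CPM with pyrotinib, which overlapped fully. The log2 fold change was -0.02 ± 0.25 (adjusted p = 0.96), and its 95% interval of 0.684 to 1.41 as a ratio leaves out a change of the size of that in Per1.

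Nr1d1 and Per1 stayed in similar proportion to each other. The FPKM ratio of Nr1d1 to Per1 was 1.99, 2.04 and 2.01 with vehicle and 1.75, 1.79 and 1.98 with the inhibitor, lower in each treated library by a small margin. DMSO replicate 2 was the highest control and pyrotinib replicate 2 the highest treated library for both genes. The ratio of Per1 to Per2 was 31.2, 63.9 and 42.8 with DMSO and 20.9, 17.1 and 15.4 with pyrotinib, and that of Per1 to Per3 was 3.89, 4.86 and 4.36 against 2.51, 2.83 and 1.69. Both of these ratios, too, were lower in every pyrotinib library than in any DMSO library, and largely restate the larger fall of Per1. Groups overlapped for the ratio of Per2 to Per3 (mean 0.101 with DMSO and 0.132 with pyrotinib). They also overlapped for that of Cry1 to Cry2 (0.537 and 0.447). How often ratios of other gene pairs lack overlap was not computed.

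The cryptochromes, partners of the PER proteins in repression, did not pass the test. Cry1 (ENSMUSG00000020038, chromosome 10) gave 7, 6.78 and 4.62 CPM with DMSO and 3.71, 5.78 and 3.52 CPM with pyrotinib. Pyrotinib replicate 2 lay above DMSO replicate 3, and the log2 fold change was -0.50 ± 0.24 (adjusted p = 0.14; 95% interval of the ratio 0.5 to 1). Cry2 (ENSMUSG00000068742, chromosome 2) gave 22.3, 20.7 and 22.1 CPM with DMSO and 15.4, 20.9 and 18.5 CPM with pyrotinib. Here too pyrotinib replicate 2 reached the controls, and the log2 fold change was -0.25 ± 0.13 (adjusted p = 0.17; 95% interval 0.697 to 1.02). Without pyrotinib replicate 2 both passed, Cry1 at -0.76 (adjusted p = 0.025) and Cry2 at -0.35 (adjusted p = 0.034). In pyrotinib replicate 2 alone the values were -0.08 and -0.05 (adjusted p = 0.90 and 0.88).

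Ciart (ENSMUSG00000038550, chromosome 3, 95878503 to 95882251, minus strand) encodes a further repressor of the ARNTL-CLOCK pair, also called CHRONO. It gave 5.66, 12.0 and 9.86 CPM with DMSO and 4.22, 4.73 and 4.84 CPM with pyrotinib. The treated libraries were close together, while the controls spread widely, with DMSO replicate 1 just above the treated group. The log2 fold change was -1 ± 0.23 (SE, adjusted p = 0.0047). Without DMSO replicate 2 it was -0.76 (adjusted p = 0.045), and with pyrotinib replicate 2 alone -0.95 (adjusted p = 0.11). The call was also lost in limma on log2(FPKM + 1), at -0.72 (adjusted p = 0.058).

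The output gene Dbp (ENSMUSG00000059824, chromosome 7, 45705088 to 45710203, plus strand) encodes a PAR bZIP factor that activates D-box genes. It gave 37.1, 39.7 and 35.7 CPM with DMSO and 22.3, 32.5 and 22.3 CPM with pyrotinib. All treated libraries were lower, but pyrotinib replicate 2 was near the controls. The log2 fold change was -0.55 ± 0.13 (SE, adjusted p = 0.0064), -0.42 once corrected for GC (adjusted p = 0.0075) and -0.20 with pyrotinib replicate 2 alone (adjusted p = 0.37). Dbp shares 539 of 2993 exonic bases with Sphk2, a sphingosine kinase gene on the other strand, which gave 19.5 ± 1.59 CPM with DMSO and 17.7 ± 3.83 CPM with pyrotinib (log2 fold change -0.14, adjusted p = 0.53). Per3 lies within the span of Camta1 on the same strand with no shared exonic base, and the log2 fold change of Camta1 was -0.19 (adjusted p = 0.39).

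Per length, the 10 genes covered a wide range of levels. In the deposited FPKM values the order with DMSO was Nr1d1 (61.2 ± 11.1, SD, n = 3), Per1 (30.4 ± 5.10), Nr1d2 (27.5 ± 1.19), Dbp (12.9 ± 0.700), Per3 (6.93 ± 0.400), Ciart (4.17 ± 1.48), Cry2 (3.52 ± 0.136), Arntl (3.49 ± 0.181), Cry1 (1.89 ± 0.405) and Per2 (0.693 ± 0.133). Per1 and Nr1d2 overlapped between DMSO libraries, as did Ciart and Cry2, and Cry2 and Arntl; the other neighbours did not. With DMSO, Nr1d1 stood higher than 95.4% of tested genes and Per2 higher than 12.3%. With pyrotinib, Nr1d1 at 21.7 ± 4.03 FPKM and Nr1d2 at 22.1 ± 1.32 FPKM had the highest means and overlapped, and Ciart at 2.06 ± 0.142 FPKM lay below every library of Cry2 and Arntl.

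**Figure D3:**
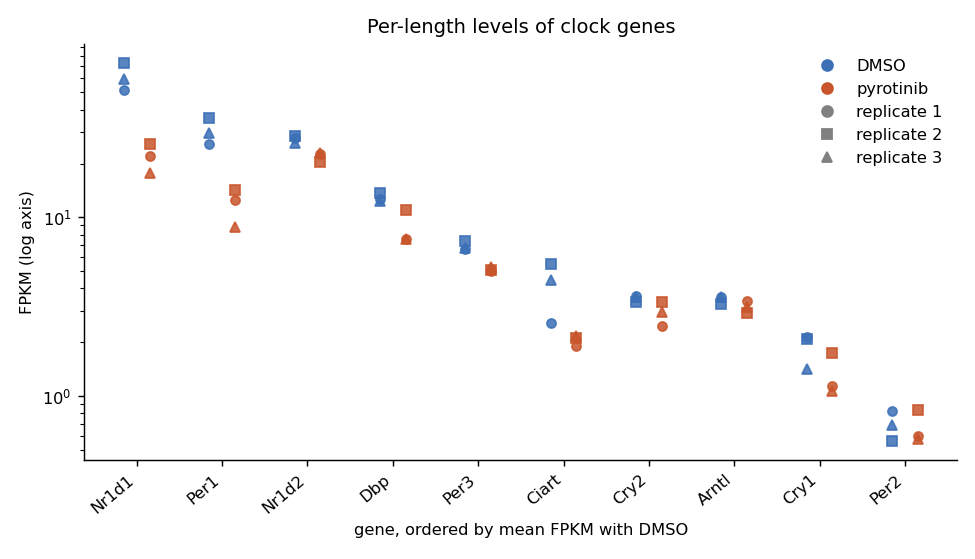
FPKM on a log axis for the 10 clock genes, ordered by their mean with DMSO, with 1 point per library (blue DMSO, orange pyrotinib, shape by replicate). Nr1d1 leads with DMSO at 61.2 FPKM and falls to the level of Nr1d2, while Per2 is lowest in both groups at under 1 FPKM.

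To relate the activator to the repressors and the output, the log2 ratio of Arntl to each of the other 9 genes was taken within each library from TMM-scaled counts, as a description without a test. The mean ratio was higher with pyrotinib for 8 of the 9 genes, Per2 being the exception. The groups did not overlap for 4: Nr1d1, Nr1d2, Per1 and Per3. Of all tested genes taken singly, 40.9% had no overlap, and the share among ratios of other gene pairs was not computed. Arntl itself moved little (log2 fold change -0.13), so the ratios largely restate the changes of the other genes. Against Nr1d1 the log2 ratio was -2.54, -3.19 and -2.75 with vehicle and -1.41, -1.84 and -1.19 with the inhibitor, a shift of 1.35. Against Per1 it was -2.43, -3.03 and -2.62, then -1.47, -1.87 and -1.07, a shift of 1.22. The shift was 0.30 against Per3 and 0.17 against Nr1d2. For Nr1d2 the groups were barely apart (DMSO replicate 3 at -2.39 and pyrotinib replicate 3 at -2.38). For Dbp the shift of 0.44 came with overlap, as pyrotinib replicate 2 at -0.58 lay between the controls, and for Ciart the shift of 0.80 overlapped by a small margin (DMSO replicate 1 at 2.22 and pyrotinib replicate 2 at 2.20).

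**Figure D4:**
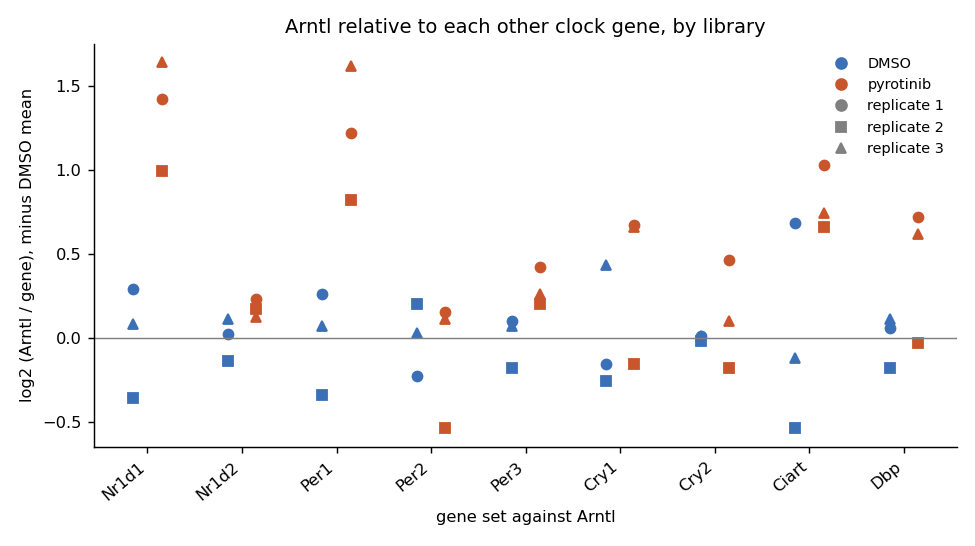
The y axis gives the log2 ratio of Arntl to each other clock gene in each library, minus the mean of the 3 DMSO libraries; shapes mark replicates. Pyrotinib libraries lie above all DMSO libraries for Nr1d1 (mean shift 1.35), Per1 (1.22), Per3 (0.30) and, by a very small margin, Nr1d2 (0.17).

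Of the 8 genes in the list of other repressors and PAR bZIP factors, 3 fell and none rose, with a median log2 fold change of -0.19. Over all tested genes, 12.8% were called lower and 13.2% higher. Timeless, which acts mainly at replication forks in mammals, fell 1.42-fold (28.0 ± 1.33 to 19.7 ± 0.855 CPM, adjusted p = 0.0032). Bhlhe40, an E-box repressor also called DEC1, fell 1.35-fold, from 160, 153 and 160 CPM to 122, 137 and 91.5 CPM (adjusted p = 0.0084). Its call was lost without pyrotinib replicate 3 (adjusted p = 0.055) and with pyrotinib replicate 2 alone (0.21). Tef, a PAR bZIP factor related to Dbp, fell 1.24-fold (109 ± 4.38 to 87.7 ± 3.40 CPM, adjusted p = 0.011), and lost its call without DMSO replicate 3 (0.068) or pyrotinib replicate 3 (0.061) and with pyrotinib replicate 2 alone (0.089). Bhlhe41 (log2 fold change -0.12, adjusted p = 0.41) and Hlf, the third PAR bZIP factor (0.12, adjusted p = 0.83), did not pass. Nfil3, which represses at D-boxes, gave 51.1, 52.0 and 46.9 CPM with DMSO and 49.0, 41.5 and 35.5 CPM with pyrotinib (log2 fold change -0.25, adjusted p = 0.11). Nfil3 passed without pyrotinib replicate 1 (-0.38, adjusted p = 0.034) and with a replicate block (adjusted p = 0.049).

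**Figure D5:**
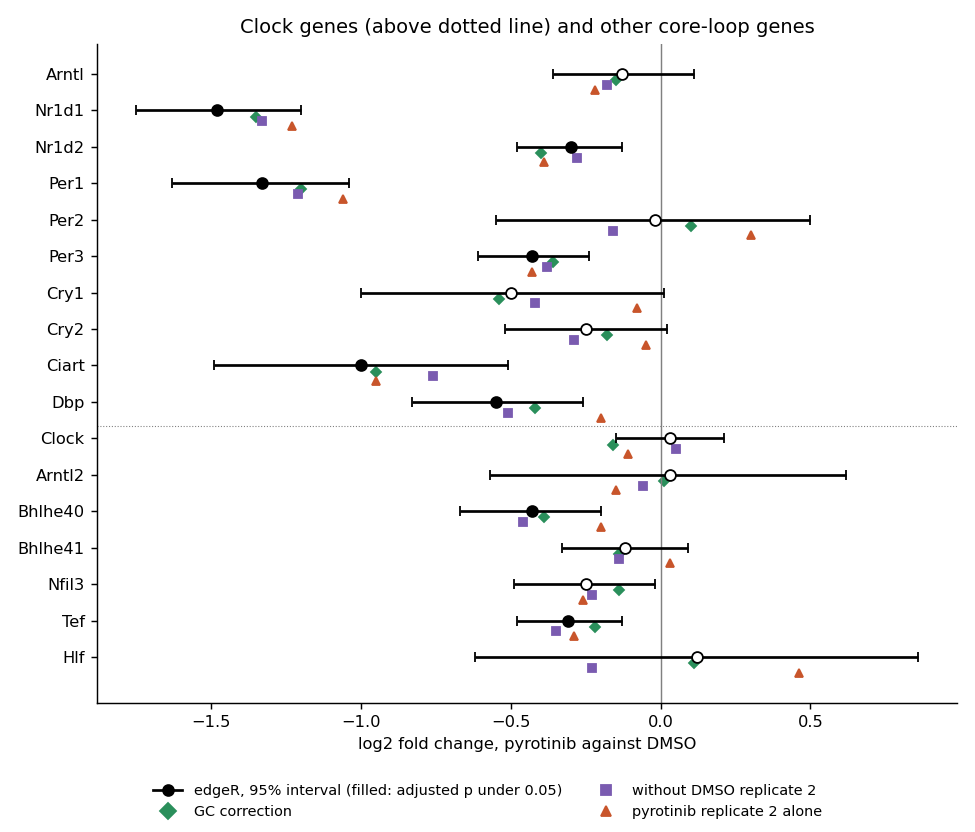
Log2 fold change of pyrotinib against DMSO for the 10 clock genes and 7 other genes of the loop, with the edgeR value and its 95% interval in black (filled where the adjusted p was under 0.05) and 3 alternatives in colour. Nr1d1 (-1.48) and Per1 (-1.33) lie farthest left and stay below -1 in each alternative shown, while Dbp (-0.55) moves to -0.20 with pyrotinib replicate 2 alone.

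A list of kinases, ubiquitin ligases, deubiquitinases and a phosphatase that act on clock proteins held 11 tested genes. Of these, 1 rose and 1 fell, a share near the 26.0% called in either direction over all genes. Log2 fold changes ran from -0.25 to 0.27, and 3 of the 11 had no overlap between groups, against 40.9% of all genes. The called genes were Gsk3b, a kinase of several clock proteins (228 ± 6.99 to 275 ± 24.0 CPM, adjusted p = 0.026), and Csnk2a1, a catalytic subunit of casein kinase 2 (165 ± 9.45 to 138 ± 7.76 CPM, adjusted p = 0.031). Both calls were lost without any one library other than pyrotinib replicate 2 (adjusted p between 0.051 and 0.15) and with pyrotinib replicate 2 alone (0.36 and 0.26), and that of Gsk3b also with GC corrected (log2 fold change 0.14, adjusted p = 0.098). The PER kinases Csnk1d and Csnk1e gave log2 fold changes of -0.04 and -0.20 (adjusted p = 0.77 and 0.079).

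Among 11 genes that cycle in many tissues, 2 rose and none fell, which is near the 13.2% called higher over all genes. The log2 fold change was negative for 7 of the 11, with a median of -0.08. Tsc22d3, a glucocorticoid-induced gene also called GILZ, rose 1.42-fold (23.7, 21.2 and 22.1 CPM to 29.6, 33.5 and 31.9 CPM, adjusted p = 0.0030). Cirbp, a cold-inducible RNA-binding protein, rose 1.41-fold (46.2, 41.2 and 43.0 CPM to 61.0, 63.1 and 59.9 CPM, adjusted p = 0.00093). For both, all treated libraries lay above all controls. The lowest value of the list was that of Noct, a rhythmic phosphatase also called nocturnin, at -0.38 without overlap between groups (adjusted p = 0.055). Usp2, a deubiquitinase with a rhythm in most tissues, gave 13.6 ± 1.93 CPM and 14.4 ± 1.18 CPM (adjusted p = 0.72).

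A mixed list of 9 genes of CREB signalling, glucocorticoid response and hypoxia held 3 that rose and 3 that fell, where 13.2% of all genes were called higher and 12.8% lower. Sik1, a kinase that is itself induced by CREB and restrains its coactivators, fell 1.88-fold, from 82.3, 89.7 and 89.5 CPM to 39.5, 57.6 and 42.2 CPM (log2 fold change -0.91 ± 0.12, adjusted p = 5.0e-05). Crtc2, a CREB coactivator, fell 1.46-fold (67.1 ± 5.19 to 46.1 ± 5.62 CPM, adjusted p = 0.0012), and lost its call with pyrotinib replicate 2 alone (0.063). Crem, whose short form represses CREB targets, rose 1.58-fold (6.37 ± 0.682 to 10.1 ± 1.36 CPM, adjusted p = 0.010), with no call without DMSO replicate 3 (0.057) or pyrotinib replicate 1 (0.051) or with pyrotinib replicate 2 alone (0.27). Fkbp5, a glucocorticoid target, fell 1.32-fold (adjusted p = 0.0080; 0.062 without DMSO replicate 3 and 0.16 with pyrotinib replicate 2 alone). Sgk1, another glucocorticoid target, rose 1.30-fold (157 ± 11.8 to 204 ± 12.2 CPM, adjusted p = 0.0040; 0.095 with pyrotinib replicate 2 alone). The 3 glucocorticoid-induced genes Tsc22d3, Sgk1 and Fkbp5 did not share a direction. Hif1a, a PAS domain factor related to ARNTL, rose 1.26-fold (adjusted p = 0.012), a log2 fold change of 0.33 that was 0.14 with GC corrected (adjusted p = 0.11). Its call was also lost without DMSO replicate 2 (0.061) or 3 (0.063), without pyrotinib replicate 1 (0.082) and with pyrotinib replicate 2 alone (0.35).

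Library totals ran from 15005737 to 16171030 counts. Pyrotinib replicates 1 and 3 carried a trend by transcript GC content, -0.235 and -0.269 log2 units per 10 percentage points against the DMSO mean, where pyrotinib replicate 2 had 0.009. The clock transcripts held 45.4% to 58.8% GC, against a median of 50.2% over tested genes, with Nr1d1 at 56.4% and Per1 at 58.8%. After the GC correction Nr1d1 and Per1 gave log2 fold changes of -1.35 and -1.20, and with pyrotinib replicate 2 alone -1.23 and -1.06 (adjusted p = 0.00038 and 0.00066). Mitochondrial genes took 2.03% to 2.16% of counts with DMSO and 2.70% to 3.60% with pyrotinib. On the first principal component DMSO replicate 2 stood at -39.1, beside -19.0 and -22.6 for the other controls. Without that library Nr1d1, Per1, Per3 and Dbp gave -1.33, -1.21, -0.38 and -0.51, all past the threshold. Ciart passed narrowly there (-0.76, adjusted p = 0.045 by edgeR) and Nr1d2 did not pass (-0.28, adjusted p = 0.061). Of the defining Leydig genes Lhcgr and Hsd3b6 had 0 reads, and the 9 Leydig markers together held 4.34 to 5.32 CPM with DMSO and 6.20 to 7.81 CPM with pyrotinib. Of other cell types, germ cell, macrophage and endothelial lists each held under 5 CPM in every library and 5 smooth muscle genes 76.4 to 86.8 and 73.3 to 83.9 CPM. Most of this smooth muscle sum came from Acta2 (means of 72.4 CPM with DMSO and 70.7 CPM with pyrotinib), and Tagln had 11 reads over all libraries. The 5 Sertoli genes summed to 132 to 152 and 87.6 to 112 CPM, nearly all from Clu; Fshr was at 0 reads. The part of these marker levels and of the mitochondrial share in the clock results was not tested.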

How the data were processed

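RNA from 6 TM3 samples was sequenced from both ends after poly(A) selection. The submitters' processing notes list HISAT2 2.0.5, DESeq2 1.20.0, fastp and featureCounts 1.5.0-p3, and the build mm10. Their roles and settings, the annotation release and the strand setting were not given in any source read. The authors deposited whole-number read counts per gene, 15005737 to 16171030 per library, and a second table of FPKM values per gene, deposited with 1 library size per column, 93.9% to 99.9% of the column's counts.

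The count test was edgeR 4.0.16 under R 4.3.3 (filterByExpr defaults, minimum count 10 and total 15; TMM scaling; two-sided quasi-likelihood F-test of pyrotinib against DMSO, all 6 libraries, no replicate block). Benjamini-Hochberg adjustment ran over 14125 genes, with a threshold of 0.05. CPM are TMM-scaled. SE was approximated from the log2 fold change and its F statistic (size over root F), and 95% intervals use it with the fit's degrees of freedom. The fit was checked on simulated counts. GC content is the mean over a gene's GENCODE M21 transcripts (99.9% of tested genes), corrected by a lowess curve of span 0.3 per library. All 10 clock genes had the same positions in that release.

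The 10 genes and all lists were chosen with earlier results of these data known. Named are the 10 clock genes, a fixed set of loop genes (Clock, Npas2, Arntl2, Rora, Rorb, Bhlhe40, Bhlhe41, Nfil3, Tef, Hlf), coding genes overlapping a clock gene, and up to 6 called genes of each other list; Usp2, Noct, Csnk1d and Csnk1e were named after their values were seen. Non-coding overlaps (genes with 53 reads over all libraries at Ciart, 57 at Cry2 and 3 at Arntl) were left out. Some genes of these lists are not reported here by name, though the counts include them. Nothing in the labels says that replicates were grown separately, so a p-value reflects the spread of these libraries alone, which may be technical. No pair within a group looked like 1 library deposited again: chi-square per degree of freedom was 3.93 to 14.8. Alternatives were DESeq2 1.42.0, limma 3.58.1 (voom, and trend on log2 of FPKM with pseudocount 1 or 0.1), other scalings and filters, thinning to the shallowest library, a replicate block, GC correction, leaving out each library, pyrotinib replicate 2 alone and a threshold of 0.01; GC correction without DMSO replicate 2 was chosen after seeing the data.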

Additional observations from a re-analysis of the deposited data

How the results depend on the processing

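Of the 10 clock genes, 6 were lower and 0 higher with DESeq2, limma-voom, either other scaling, either other count filter, thinning, the replicate block and the GC correction with or without a block or DMSO replicate 2. The count lower was 5 to 8 when 1 library was left out, 5 at a threshold of 0.01, 5 with FPKM at either pseudocount, 4 with pyrotinib replicate 2 alone and 3 with FPKM without a filter, where Nr1d1, Per1 and Per3 passed. Over 210 values of single clock genes under 21 alternatives, 8 lost a call, 2 gained one and none reversed a called direction. Per2 changed sign within its error (-0.22 to 0.30).

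Over all 14125 tested genes, 12.8% were called lower and 13.2% higher. Of the 41 other clock pathway genes tested, 8 were lower and 6 higher, and 10 and 8 with the replicate block. Leaving out 1 library gave 4 to 11 lower and 3 to 8 higher. The counts were 2 and 2 with pyrotinib replicate 2 alone, 5 and 3 with FPKM at either pseudocount, 1 and 2 with FPKM without a filter, and 5 and 3 at a threshold of 0.01. The counts over all genes moved too, from 1805 lower and 1862 higher to 2141 and 2124 with the replicate block. With 1 library left out, 988 to 2611 of all genes were lower and 968 to 2615 higher. The cause of these changes was not tested. Same-numbered libraries correlated at 0.005, 0.076 and 0.023 in their deviations from the group means, so the numbers were not taken as pairs. Genes with few reads (Per2 with 370, Cry1 with 493, Ciart with 651 over all libraries) carry the widest intervals.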
